A study of Arabidopsis thaliana with 6 samples.

Results

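The transcripts described here are those that stood among the brightest signals of Arabidopsis thaliana pollen and whose mean signal moved little at each step from the dry grain to the growing tube. A probe set, the group of short oligonucleotides that reports 1 transcript on the ATH1 array, was a member if its signal lay above 2000 on all 6 arrays and if its stage means of log2 signal differed by less than 0.3 at both steps, from mature to hydrated pollen and from hydrated pollen to tubes. Of 22746 probe sets that are not controls, 382 passed the signal minimum and 141 of these passed the step limit. Of the 141, 8 were left out by name (ANX2, SCN1, RALFL26, AT2G15880, AT1G49490, AT3G19020, AT4G39110 and AT3G07820), which left 133 members, 34.8% of the 382. Of the members, 64 carried 1 gene name, 5 carried several and 64 were unnamed here. Below, a gene counts as named only where a probe set carries its name alone. The members were thus chosen by their signals on these 6 arrays, so that small steps between stages are a property of the choice and are described without a test.

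All plants were of ecotype Columbia and 50 days old, and each of the 3 stages had 2 arrays, numbered 1 and 2, with 8 µg of total RNA and 20 µg of labelled cRNA per array. Mature pollen was collected dry, by vacuum, from freshly opened flowers. Hydrated pollen was shaken off flowers into liquid medium with sucrose and salts, pelleted, and incubated for 45 min at 25 °C in a thin layer. Pollen tubes came from the same kind of preparation kept for 4 h, had grown to about 150 µm and were collected on a 50 µm mesh that let ungerminated grains pass. Hydration and the change in handling therefore cannot be told apart at the first step, nor can tube growth and the mesh at the second. According to the design text the replicates are biological, and nothing used here says what arrays of the same number shared.

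A mature Arabidopsis grain holds a large vegetative cell, which grows the tube, and a pair of sperm cells inside it. The grain is shed dry with a store of mRNA and protein, and germination in many species can begin on this store before much new transcription. Among the most abundant stored messages of pollen are those for enzymes that act on pectin, the polysaccharide that makes up much of the growing tube's wall, and for secreted proteins, vesicle traffic and signalling at the tip. Signals were read from RNA of whole samples, so that fewer cells of a type and less RNA per cell cannot be told apart. The trimmed means of all 6 arrays were nearly equal, as given below, and they leave out each array's brightest 2% of probe sets. A steady signal is thus steady relative to that mean. It is not shown to be a steady share of the RNA or a steady number of molecules per grain.

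On all 6 arrays a small set of probe sets carried much of the signal. The members, 0.585% of the probe sets, held between 22.4% and 25.3% of the summed signal of each array, and the 382 bright probe sets held between 56.1% and 63.1%. Array medians lay between 14 and 24.4, and the mean of each array without its lowest and highest 2% lay between 100.02 and 100.03. Markers of other tissues were near background: the 1 photosynthesis, 1 floral and 3 tapetum genes with a name here reached at most 47.2, 50.8 and 29.2, against a 60th percentile of 19.8 to 34.2. Of the 16 pollen markers listed, only ACT12, a reproductive actin, had a probe set that named it alone, with signals between 1673.7 and 6500.7. VGD1, another of the 16, shared a member probe set with VGDH1, with signals between 20925.4 and 36843.4. MGH3, a histone H3 of the male germ line, ranged from 886.1 to 2442.5.

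The members' steps were small beside what the arrays resolve. From mature to hydrated pollen their log2 steps ran from -0.30 to 0.29 with a median of 0.05, and from hydrated pollen to tubes from -0.29 to 0.30 with a median of -0.13. The medians over all 11412 tested probe sets were -0.02 and -0.06. The rule limits each step and not their sum: from mature pollen to tubes the members' differences ran from -0.56 to 0.44, and in 106 of 133 they were smaller than 0.3 in size. In 80 of 133 members the hydrated mean lay above the mature mean, and in 105 the tube mean lay below the hydrated mean. The lower tube means turned with the scaling of the arrays: after quantile normalization 4 of the same 133 lay below hydrated pollen, the median step was 0.21 and the highest step 0.69, while scaling to a common 75th percentile left 109 below and a median of -0.17. The median SE of a step was 0.31, and the 95% interval of a step reached a median of 0.69 to either side of it. With the replicate number as a block these were 0.19 and 0.40. In either fit the interval is wider than the limit of 0.3, so that a probe set within it is not shown to be constant to that degree.

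With the step limit of 0.3, the members were 133 of the 382 bright probe sets, the smaller share. This turned with the limit, as a limit of 0.5 took in 235 of the 382. The median SE of a step was 0.31 in the bright probe sets outside a limit of 0.3. Missing that limit therefore does not by itself show a change. The counts that follow use the limit of 0.3. Of the 241 that passed the signal minimum and missed a step limit, 132 held within the limit at hydration and then lay lower in tubes by more than it. In all, 184 were lower in tubes by more than the limit and 16 were higher, and the median tube step was -0.48. These numbers too moved with the scaling: after quantile normalization 94 of the same 241 were lower and 37 higher, the median was -0.13 and 68 lay within both limits, while a common 75th percentile gave 188, 11 and -0.52 with 12 within both limits. A further 16 were lower and 25 higher by more than the limit at hydration, with a tube step inside it. Of all tested probe sets, 66 (0.578%) passed an adjusted p of 0.05 at hydration, 522 (4.57%) at the tube step and 901 (7.9%) between mature pollen and tubes (limma, Benjamini-Hochberg adjustment). None of the 133 members passed in any of these comparisons, adjusted or at an unadjusted p under 0.05, which the rule nearly fixes and from which nothing is read. In a fit blocked by replicate number, the counts over all probe sets were 421 (3.69%), 1646 (14.4%) and 2159 (18.9%). There 1 member passed, AT1G11770, from which nothing is read either, and its signals are described among the oxidases below.

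**Figure D1:**
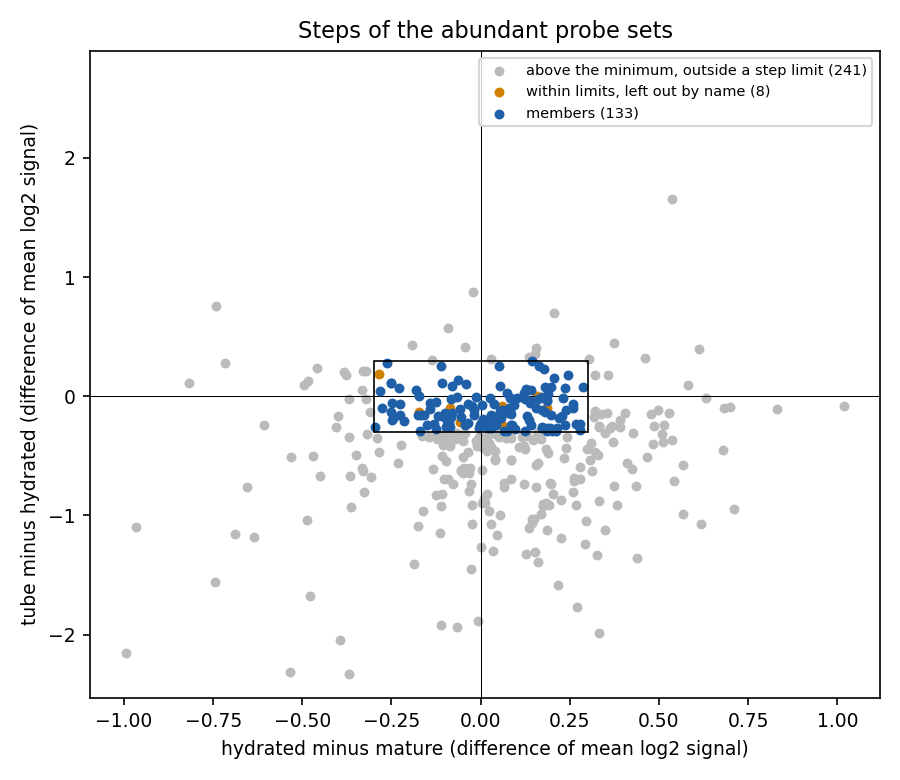
Each point is 1 of the 382 probe sets with a signal above 2000 on all 6 arrays, plotted by its log2 step from mature to hydrated pollen (horizontal axis) and from hydrated pollen to tubes (vertical axis), with stage means over 2 arrays. The square marks the limit of 0.3 that chose the 133 members, and most of the 241 grey points lie below it, 184 of them lower in tubes by more than the limit with the deposited scaling.

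The edge of the group was not a gap. Just inside it lay an unnamed probe set with a tube step that rounds to 0.30, AT1G11770 with steps of -0.297 and -0.259, and AT5G19580 with a tube step of -0.294. Just outside lay another unnamed probe set with a tube step of -0.302, AT3G01250 at 0.303 and the pectate lyase-like gene AT3G01270 at -0.306. AT5G45880 was the next named gene outside.

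Pectin enzymes were 7 of the 64 named members. Pectin methylesterases strip methyl groups from pectin and so change how stiff the wall is, and polygalacturonases and pectate lyases cut the pectin chain. All 7 were bright on every array, with signals between 11995.8 and 35204.5, and all had a lower mean in tubes than in hydrated pollen, by 0.16 to 0.29 on the log2 scale. After quantile normalization 1 of the 7 was lower. AT2G26450, a pectin methylesterase, had signals of 16296 and 16582 in mature pollen, 19349.5 and 20578 in hydrated pollen and 15624 and 17241 in tubes, replicate 1 first and replicate 2 second, as in all values by array given here. It stood highest on the hydrated arrays, where both lay above the other 4, and its mean in tubes was close to its mean in mature pollen (tube minus mature 0 ± 0.30, SE). AT3G05610, also a pectin methylesterase, had signals of 14411 and 20357 in mature pollen, 17031 and 23370.4 in hydrated pollen and 16198 and 19020.5 in tubes. Its stages overlapped, with the second array above the first in every stage. It was the 1 pectin enzyme of the 7 whose steps also stayed under 0.3 within each replicate number.

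AT3G17060, another of the methylesterases, had signals of 20090.0 and 22350.2 in mature pollen, 17021 and 22697 in hydrated pollen and 17379.6 and 17711 in tubes. Both tube arrays lay below both mature arrays and within the range of the hydrated arrays. The pectate lyase AT2G02720 had signals of 16934 and 13848 in mature pollen, 14049 and 15892 in hydrated pollen and 13596 and 11996 in tubes. Both of its tube arrays lay below the other 4, by a margin smaller than the gap between the mature arrays. AT5G48140, of the polygalacturonase type, had signals of 35204 and 24809 in mature pollen, 27845 and 24827 in hydrated pollen and 26077 and 17721 in tubes. Its first mature array was the highest and its second tube array the lowest, 1.99-fold apart. The first tube array lay between the hydrated arrays and the second below them. AT2G23900, of the same type, ranged 1.29-fold over the 6 arrays.

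Some pectin enzymes outside the group had falls in tubes that passed the test. The small steps of those inside it are a property of the choice. Of the 16 tested genes of the cell wall list, 11 passed the signal minimum and 6 were members. At the tube step 4 of the 16 fell (2.03% of all tested probe sets did) and none rose, between mature pollen and tubes 5 fell (3.29% of all) and none rose, and the medians were -0.31 and -0.40 against -0.06 and -0.12 over all tested probe sets. Over the 382 bright probe sets, which include 11 of the 16, the medians were -0.29 and -0.26. The list's median tube step was thus close to that of bright probe sets in general. Of the 382, 15 fell at the tube step and 28 between mature pollen and tubes. At hydration none passed, with a median of -0.12. With a common 75th percentile 2 fell at the tube step and 4 between mature pollen and tubes. Blocked by replicate number, 5 fell at hydration (1.12% of all), 6 at the tube step (7.63% of all) and 6 between mature pollen and tubes (9.04% of all). The neighbouring genes AT5G07420 and AT5G07430, both pectin methylesterases that lie side by side on the chromosome, were on either side. AT5G07420 fell from 10160.7 ± 283.8 in hydrated pollen to 2285.8 ± 278.3 in tubes (SD, n = 2; log2 change -2.16, adjusted p = 0.00377, limma). AT5G07430, a member, had signals of 15296 and 28468 in mature pollen, 13476 and 26926 in hydrated pollen and 12717 and 20693 in tubes. Its first and second arrays stood apart in every stage, and its tube step was -0.23 ± 0.45 (SE). The other falls in tubes were AT3G06830 (-2.29, adjusted p = 0.00665), AT5G27870 (-2.62, adjusted p = 0.008) and AT4G15980 (-1.64, adjusted p = 0.0257), in limma with Benjamini-Hochberg adjustment, all 3 of them pectin methylesterases.

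Many proteins of the invertase and pectin methylesterase inhibitor family bind and block those enzymes, and 3 members belonged to it. AT5G50030 had signals of 23904 and 22957 in mature pollen, 23234 and 19424 in hydrated pollen and 23549 and 17814 in tubes. It was among the 10 named members with the smallest steps, and its second array was the lower in each stage. AT4G02250 had signals of 28718 and 22664 in mature pollen, 27483 and 23543 in hydrated pollen and 23806 and 18738 in tubes. Its second tube array was its lowest. AT1G23350 ranged 1.72-fold, with the second array higher in each stage.

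Another 6 members were glycosyl hydrolases or handled sugars, with a tube mean below the hydrated mean in all 6 by 0.01 to 0.29, and in none of them after quantile normalization. GH9A4 and GH9B11, of the endoglucanase family that cuts glucan chains, both ranged 1.49-fold over the arrays. AT3G62710, a glycosyl hydrolase, had signals of 26938 and 20714 in mature pollen, 25219 and 22687 in hydrated pollen and 23472 and 18314 in tubes. No stage stood apart. AT5G20390, a relative of the enzymes that cut callose, and AT4G25900, a mutarotase-like protein, ranged 1.63-fold and 1.67-fold. AT3G05150, a sugar transporter of the ERD6-like group, is taken up below for its replicate difference.

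Oxidases made up a group of 4, with signals from 7210 to 29752.9 and a tube mean below the hydrated and the mature mean in all 4. After quantile normalization none lay below hydrated pollen and 1 lay below mature pollen. AT5G47000, a peroxidase of the secreted plant class, had signals of 25999.9 and 25512 in mature pollen, 26993 and 25586 in hydrated pollen and 26458 and 20926 in tubes. On 5 of the arrays its values lay within a narrow band, and the second tube array lay under it. AT5G19580, a relative of glyoxal oxidases, had signals of 26220.3 and 28304 in mature pollen, 29753 and 27685 in hydrated pollen and 25634 and 21378 in tubes. Its tube arrays were both below the other 4. AT1G30710, a flavin-binding oxidase of the berberine bridge enzyme family, had signals of 13756 and 13389.6 in mature pollen, 12429 and 14091 in hydrated pollen and 13404 and 11886 in tubes. These 6 values spanned 1.19-fold, among the narrowest of the named members. AT1G11770, of the same family, had signals of 10999.6 and 10438 in mature pollen, 8118 and 9366 in hydrated pollen and 7369 and 7210.0 in tubes. Both tube arrays lay below both hydrated arrays and these below both mature arrays. The 2 steps inside the limit added up to -0.56 ± 0.29 (SE) between mature pollen and tubes. In the blocked fit the SE was 0.18. Because the rule used both of these steps, the difference is given without a test. After quantile normalization the difference was -0.13.

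**Figure D2:**
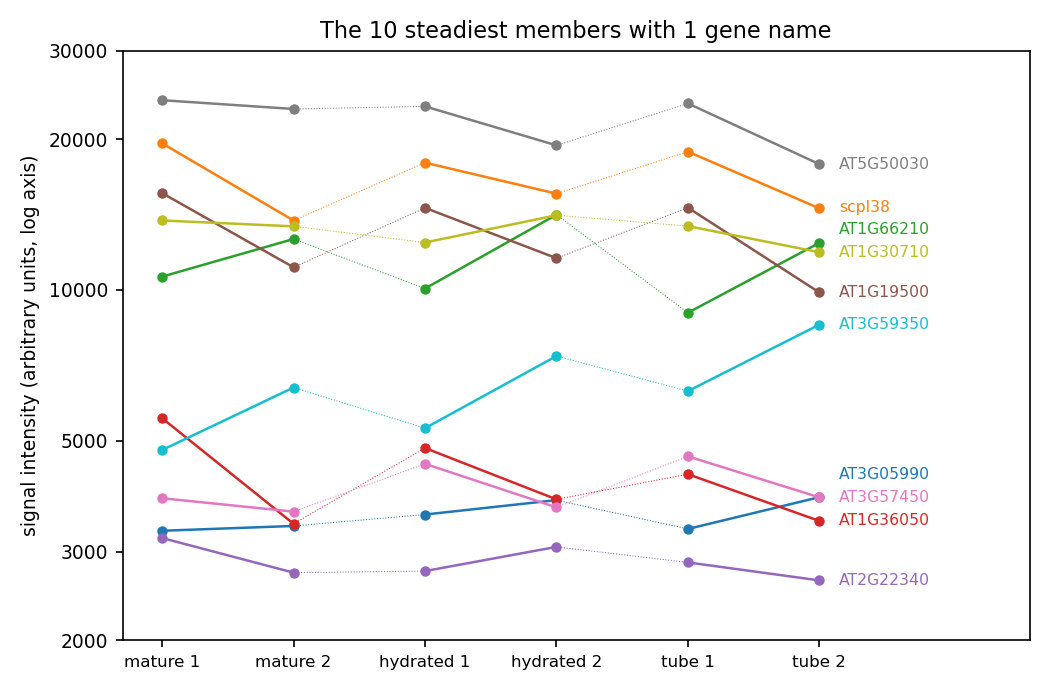
Signal of the 10 named members with the smallest steps within replicate numbers, on each of the 6 arrays, in arbitrary units on a log axis. Solid lines join the 2 arrays of a stage, and dotted lines lead from one stage to the next. The first array is the higher in each stage for scpl38, AT1G19500, AT1G36050, AT3G57450 and AT5G50030, and the second for AT1G66210, AT3G59350 and AT3G05990.

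Among 6 secreted or wall-associated proteins was the named member with the smallest steps. AT3G05990, a leucine-rich repeat protein, had signals of 3306 and 3380.3 in mature pollen, 3562 and 3806 in hydrated pollen and 3334 and 3858 in tubes. Its largest step within a replicate number was 0.17, and the 6 values spanned 1.17-fold. AT1G29140, of the family of the olive pollen allergen Ole e 1, had signals of 28426 and 28079 in mature pollen, 30218 and 26494 in hydrated pollen and 26704 and 21931 in tubes. The mature and hydrated arrays overlapped, and the second tube array was the lowest. AT2G22180 and AT3G52460, both hydroxyproline-rich, ranged 1.30-fold and 1.58-fold. AT3G26860 and AT5G26060, related to the self-incompatibility proteins of poppy, both had a higher first array in each stage, by 0.61 ± 0.15 and 0.60 ± 0.15 on the log2 scale (SE).

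Protein turnover was represented by 4 members. The serine carboxypeptidase-like protein scpl38 had signals of 19609.8 and 13753 in mature pollen, 17940.2 and 15559 in hydrated pollen and 18869 and 14543 in tubes. The first array was the higher in each stage, and the stage means differed by 0.02 and -0.01. AT1G66210, a subtilisin-like protease, had signals of 10628 and 12633 in mature pollen, 10062 and 14124 in hydrated pollen and 9004 and 12412 in tubes. Here the second array was the higher, and the largest step within a replicate number was 0.19. UBC28, a ubiquitin-conjugating enzyme, was the 1 gene of the ubiquitin list with a name here and had signals of 5662 and 5772 in mature pollen, 7284 and 5819 in hydrated pollen and 5982 and 7289.6 in tubes. Both mature arrays lay below the other 4, by little in 2 of them. AT1G65240, an aspartyl protease, had signals of 3469 and 2688 in mature pollen, 2403 and 2697 in hydrated pollen and 3039 and 3146 in tubes. The hydrated mean was the lowest, with steps of -0.26 and 0.28. Both tube arrays lay above both hydrated arrays, and the mature arrays overlapped with each stage.

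Signalling was the role given to 8 members. AT2G26490, known as JINGUBANG, is a WD40 protein that restrains pollen germination, and its signals ran from 4291.3 to 6737.2 with steps of -0.25 and 0.11. AT3G59350, a receptor-like cytoplasmic kinase, had signals of 4791 and 6384 in mature pollen, 5297 and 7379 in hydrated pollen and 6279.9 and 8526 in tubes. Its mean was higher at each step, and by 0.40 between mature pollen and tubes (0.46 with a common 75th percentile and 0.83 after quantile normalization), while the stages overlapped. AT1G70790, a lipid-binding protein with a C2 domain, had signals of 22533 and 20751 in mature pollen, 26901 and 24129.9 in hydrated pollen and 24006 and 19326 in tubes. Both hydrated arrays lay above the other 4, by little over the first tube array. AT1G04700, a Raf-like kinase, had signals of 3209.9 and 3811 in mature pollen, 2932 and 3645 in hydrated pollen and 2444 and 3055 in tubes. In each replicate number the tube array was the lowest.

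Of the other signalling members, AT3G61160, a shaggy-like kinase of the GSK3 family, ranged 1.31-fold and AT2G03410, of the Mo25 family of kinase scaffolds, 1.28-fold. AT3G55050, a protein phosphatase of the PP2C class, ranged 1.49-fold. SGP2, a small GTP-binding protein, had the largest gap between replicate numbers among the members whose second array was higher and is given below.

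Microtubule genes took different courses. Tubulins build the microtubules along which organelles and the sperm cells are positioned in the tube. Of 15 listed tubulin genes 7 had a name here, 3 passed the signal minimum and 2 were members. TUB9, a beta-tubulin, had signals of 14937 and 12865 in mature pollen, 14955 and 15519.8 in hydrated pollen and 14038 and 12605 in tubes. The 6 arrays spanned 1.23-fold, and its largest step within a replicate number was 0.30. TUA6, an alpha-tubulin, had signals of 3033 and 4586 in mature pollen, 3481 and 5617 in hydrated pollen and 4701 and 5341 in tubes. The second array was the higher in each stage, and the mean was higher at each step, by 0.25 and 0.18. TUB7, a beta-tubulin, was the 1 of the 7 that passed the test and rose in tubes, from 91.45 ± 11.81 to 404.15 ± 24.82 (SD, n = 2; log2 change 2.15, adjusted p = 0.0107, limma). The third bright tubulin, the pollen alpha-tubulin TUA1, went from 19067 ± 1603 to 8162 ± 1770 (log2 change -1.24, adjusted p = 0.0543, limma), and in the blocked fit it fell with an adjusted p of 0.000101. The list's medians were 0.14, 0.41 and -0.06 at hydration, at the tube step and from mature pollen to tubes.

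No named gene of the actin and tip growth lists was a member. Only 3 of 29 listed actin genes and 5 of 26 listed tip growth genes had a name here. With 64 members unnamed, the other listed genes could not be placed inside or outside the group. The receptor kinases ANX2 and AT4G39110, which lay within both step limits and were left out by name, are not in the tip growth list. Of 3 named actin genes 2 passed the signal minimum, ACT11 and PLIM2b, and none of the 3 passed the test at any step, with medians of -0.38, 0.18 and -0.20. With the block, 1 of them, ACT12, fell at hydration (adjusted p = 0.0259, limma) and between mature pollen and tubes (adjusted p = 0.0376, limma). Of 4 tested tip growth genes 1 passed the signal minimum, and both at the tube step and between mature pollen and tubes AT5G22400 rose and AT1G72460 fell, with medians of -0.58, -0.03 and -0.03. With the block 2 rose and 2 fell at each of these, and 1 fell at hydration. The calcium and membrane transport lists had no gene with a name here, and the epidermis list had none either.

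Membrane traffic and lipid handling accounted for 6 members. AT1G36050, a protein of the vesicles between the endoplasmic reticulum and the Golgi, had signals of 5546 and 3414 in mature pollen, 4835 and 3819 in hydrated pollen and 4288 and 3458 in tubes. The first array was the higher in each stage, and the largest step within a replicate number was 0.20. AT1G25240, an adaptor for clathrin coats, ranged 1.38-fold. AT4G39670, a glycolipid transfer protein, AT3G19310, a phospholipase C-like protein, and AT2G19050, a GDSL lipase, ranged 1.74-fold, 1.43-fold and 2.11-fold. AT5G01800, a saposin-like protein and the named member with the lowest single value, had signals of 2252 and 5140.3 in mature pollen, 3596 and 3664 in hydrated pollen and 3565 and 3591 in tubes. The 4 arrays of hydrated pollen and tubes lay between 3565 and 3664, and the mature arrays lay on either side of them, 2.28-fold apart.

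A last group of 3 comprised a chaperone, a histone and a translation factor. AT1G44160, a DnaJ-type chaperone, ranged 1.32-fold. AT5G02570, a histone H2B, and AT3G16040, a protein associated with the translation machinery, differed between replicate numbers and are given below. For 15 further named members no role is given here. Among them AT2G22340 had signals of 3198 and 2728 in mature pollen, 2747 and 3070.2 in hydrated pollen and 2859 and 2632 in tubes, within 1.21-fold over the arrays. AT3G57450 had signals of 3839 and 3609.7 in mature pollen, 4496 and 3682 in hydrated pollen and 4654 and 3854 in tubes, within 1.29-fold. AT1G19500 had signals of 15599 and 11092 in mature pollen, 14575 and 11566 in hydrated pollen and 14587 and 9880.0 in tubes, with the first array higher in each stage. AT4G27580 had signals of 34508 and 23459.6 in mature pollen, 30586 and 19314 in hydrated pollen and 30199 and 17898 in tubes, again with the first array higher in each stage.

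The step limit was set on means, and a member's largest step within a replicate number cannot be smaller than its largest step of means. Each member has 4 such steps, mature to hydrated and hydrated to tube in each replicate number. The largest of the 4 had a median of 0.32 over the members and ran from 0.14 to 0.72. In 51 members, 22 of them with 1 gene name, all 4 steps stayed under 0.3, in 127 under 0.5 and in all 133 under 1. The member with 0.72 was AT5G18150, named after its values were seen, with signals of 6603 and 2888 in mature pollen, 4007 and 3916 in hydrated pollen and 3856 and 3521 in tubes. Its mature arrays lay on either side of the other 4. Over the 6 arrays, the highest value was a median of 1.49 times the lowest, and in 121 members less than 2 times. The lowest of the 6 values was on the second tube array in 50 members and on the first in 15.

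**Figure D3:**
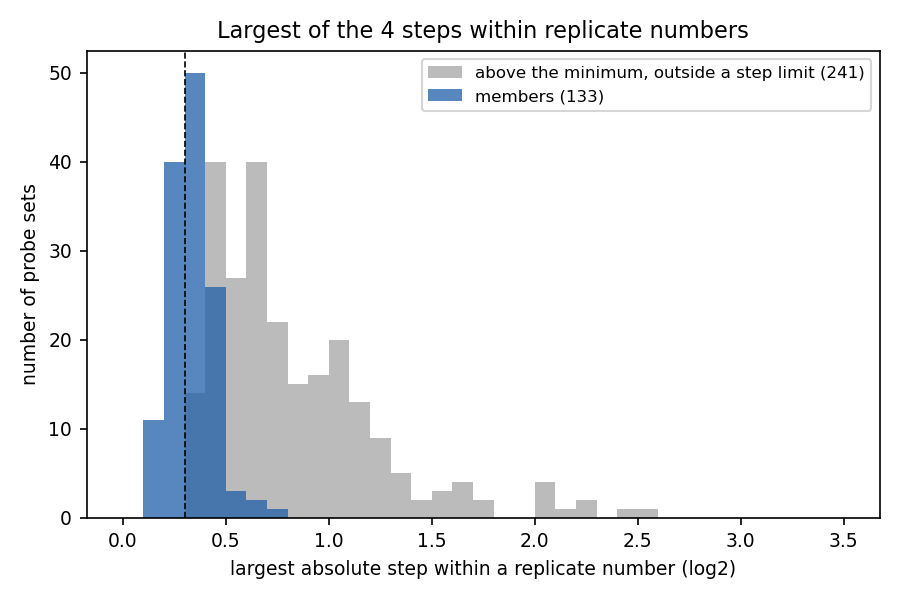
Number of probe sets (vertical axis) by the largest absolute log2 step within a replicate number (horizontal axis, bins of 0.1), for the 133 members and for the 241 bright probe sets that missed a step limit. The dashed line marks the limit of 0.3, and the members run from 0.14 to 0.72.

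Differences between replicate numbers did not enter the stage means that chose the members and could be tested. Of all 11412 tested probe sets 1158 (10.1%) differed between replicate 2 and replicate 1 over the stages (limma with stage means and replicate number, Benjamini-Hochberg adjusted p under 0.05), 638 with replicate 2 higher and 520 with replicate 1 higher. Of the 133 members 22 (16.5%) differed, 8 with replicate 2 higher and 14 with replicate 1 higher, and of the 241 bright probe sets outside a step limit 49 (20.3%). The difference between these shares was not tested. The median absolute difference between the 2 arrays of a stage was 0.33, 0.26 and 0.28 in the members for mature pollen, hydrated pollen and tubes, against 0.31 in each stage for the 241 bright probe sets outside a step limit and 0.71, 0.61 and 0.66 over all tested probe sets. In 90 members (67.7%) it had the same sign in all 3 stages, against 61.8% of the 241 and 44.3% of all tested probe sets, with replicate 1 higher in 50 and replicate 2 higher in 40. In both measures the members lay nearer to the other bright probe sets than to all tested ones.

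SGP2 had signals of 4391 and 8974 in mature pollen, 4846 and 9661 in hydrated pollen and 4015 and 7756 in tubes. The second array lay far above the first in every stage, by 0.99 ± 0.14 on the log2 scale or 1.99-fold (SE; adjusted p = 0.000165, limma), while the stage steps were 0.12 and -0.29. AT5G02570, the histone H2B, had signals of 5221 and 3272 in mature pollen, 6914 and 3003 in hydrated pollen and 7204 and 3094 in tubes. There the first array was higher in every stage, by 1.03 ± 0.15 or 2.05-fold (adjusted p = 0.000219, limma), the 1 called member with more than a 2-fold difference. The pectin methylesterase AT5G07430, whose values are given above, differed by 0.87 ± 0.16 (adjusted p = 0.0014, limma). AT3G16040, the translation-associated protein, had signals of 13800.2 and 7674 in mature pollen, 10108 and 7383 in hydrated pollen and 12696 and 6900.4 in tubes. Its first array was the higher by 0.73 ± 0.15 (adjusted p = 0.00432, limma). AT3G05150, the sugar transporter, had signals of 2908 and 4758 in mature pollen, 3148 and 4655 in hydrated pollen and 2583 and 4355 in tubes. Its second array was the higher by 0.68 ± 0.14 (adjusted p = 0.00398, limma). In all 5, the arrays of one number lay above all arrays of the other, whatever the stage.

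The other named members that passed were AT4G27580, AT5G54095, AT3G26860, AT5G26060 and AT2G19050, with replicate 1 higher by 0.57 to 0.66, and TUA6, with replicate 2 higher by 0.49 ± 0.15 (adjusted p = 0.046, limma). The sign of the replicate difference was the same for all 22 called members in each of 11 other settings, which was mostly fixed in advance. The filter and the intensity trend do not enter the difference, and raising low values leaves these bright signals as they were. Leaving out either array of a stage gives the same difference. The calls were not the same: 9 passed again with arrays scaled to a common 75th percentile, 17 after quantile normalization and 8 with low values raised to the background limit. None passed when the intensity trend was left out of limma's variance estimate, where 8 members had an unadjusted p under 0.05. SGP2, AT5G02570, AT5G07430 and AT3G05150 passed in the other 10 settings. Counted over all 133 members, the calls numbered 43 with the 75th percentile, 42 of them with replicate 2 higher (12.7% of all tested probe sets were called there), and 20 after quantile normalization, 9 with replicate 2 higher. Without the first hydrated array 9 of the 22 passed and without the second 11. Of the genes left out by name, AT2G15880, AT3G19020 and AT1G49490, extensin-like proteins of the pollen wall, differed in the same way and by more than any member, by 1.80, 1.22 and 1.11 with replicate 1 higher (adjusted p between 1.69e-06 and 0.000321, limma).

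**Figure D4:**
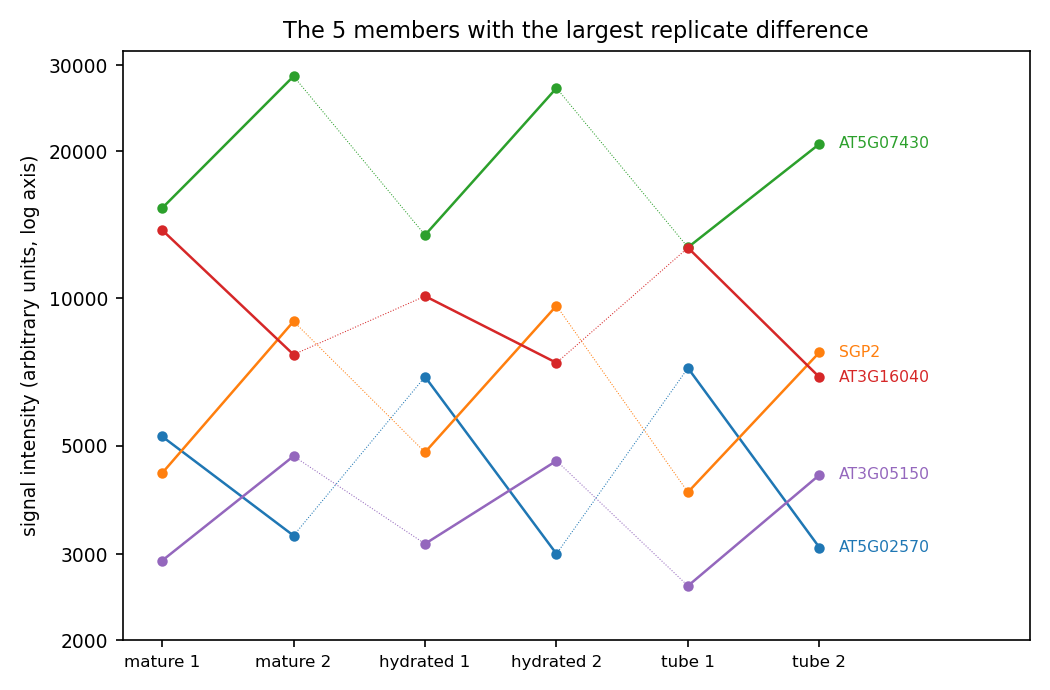
Signal of the 5 named members with the largest mean difference between replicate numbers, on each of the 6 arrays, in arbitrary units on a log axis. Solid lines join the 2 arrays of a stage; they rise in all 3 stages for SGP2, AT5G07430 and AT3G05150 and fall in all 3 for AT5G02570 and AT3G16040.

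No named gene among those often used as references in other tissues was in the group. Of 21 listed reference genes 11 had a name here, 8 were tested, none of the named ones reached the signal minimum and their highest signal was 558.3. The listed genes without a name here could not be placed inside or outside the group. None of the 8 passed the test at any step, with medians of -0.13, -0.03 and -0.29, and with the block AT2G28390 rose from mature pollen to tubes (adjusted p = 0.0177, limma). EIF4A-2, the 1 translation factor with a name here, had signals between 87 and 108.3 and no call. MGH3, the 1 named gene of the sperm cell list, had a log2 step of -0.68 in tubes (adjusted p = 0.504, limma), which passed with the block (adjusted p = 0.0123).

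In the gene annotation of TAIR10.1, a single pair of the 64 named members, AT2G26450 and AT2G26490, lay within 5 genes of each other, 4 apart. Probe sets with several gene names, such as that of AT5G12960 and AT5G12950, did not enter this count. No rate for other genes was taken, so the count is not read as low or high. Among all members, 11 probe sets were of the kind whose oligonucleotides match several transcripts, and none of the named members was.

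The set of steady probe sets moved with the settings of the rule. A step limit of 0.2 kept 68 and a limit of 0.5 took in 235. Leaving out 1 array at a time gave between 98 and 136 probe sets, of which 76 to 105 were among the members. Scaling to a common 75th percentile gave 107, with 93 of the members, and quantile normalization 154, with 89 of the members.

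**Figure D5:**
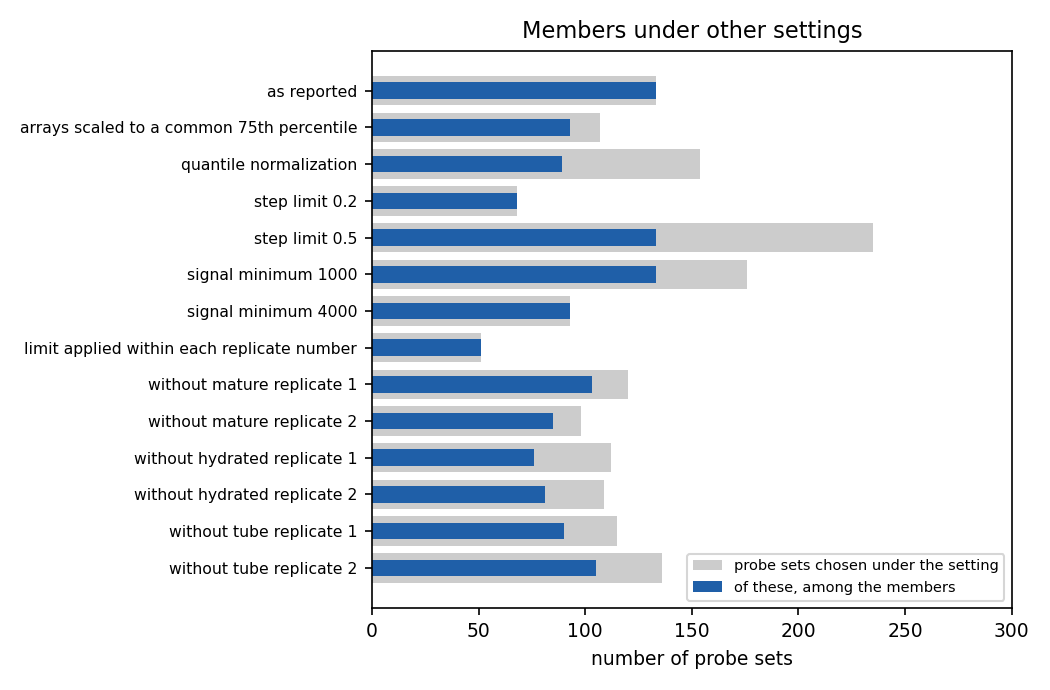
Number of probe sets chosen under each setting (grey bars) and how many of them are among the 133 members (blue bars). A step limit of 0.5 took in 235 probe sets, and the limit applied within each replicate number kept 51.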

How the data were processed

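The authors deposited intensity on a linear scale, with 1 value for each probe set on each array. The submitters' processing notes name GCOS 1.0 and MAS5. Sources used here name no further step and no genome build of the array. No detection calls entered. Control probe sets (64 of 22810) were left out, values under 0.1 were set to 0.1 (1 value) and log2 was taken. Gene names are those of the platform annotation, brought up to date with a TAIR10.1 gene table: 13513 probe sets had 1 gene, 503 several and 8730 none here.

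The 11412 probe sets above their array's 60th percentile on at least 2 arrays were tested with limma 3.58.1 in R 4.3.3, with a mean per stage over all 6 arrays, an intensity trend and two-sided p-values adjusted by the Benjamini-Hochberg method. A call is an adjusted p under 0.05. A second model with stage means plus replicate number tested replicate 2 against 1. The scripts were tested on simulated data. With 2 arrays a stage, an exact permutation test of 1 value could not go below 0.333. Replicate deviations of the stages correlated over the tested probe sets (Pearson's r 0.174, 0.221 and 0.185, across probe sets, and 0.728, 0.678 and 0.814 over the members), and so replicate number was taken as a pairing and used as a block where that is stated.

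The members, the gene lists and the role groups were chosen with earlier results of these data known, and role groups after the names had been seen. Members given with values were those in a list, the 10 with the smallest steps within replicate numbers, the 5 with the largest replicate difference, the 8 with the highest mean signal, the 3 nearest to the step limit on either side and the 3 with the lowest single value. Signals of different probe sets do not rank their transcripts. Other arrays' scalings, filters, limits and left-out arrays were tried as alternatives.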

Additional observations from a re-analysis of the deposited data

How the results depend on the processing

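The count of 133 members became 68 with a step limit of 0.2, 235 with a limit of 0.5 and 51 with the limit applied within each replicate number, and lay between 98 and 136 with 1 array left out. In a fit with a replicate block, the changed probe sets over the whole array were 421 in place of 66 at hydration, 1646 in place of 522 at the tube step and 2159 in place of 901 between mature pollen and tubes. Without the intensity trend in limma, adjusted calls were 0 at hydration, 0 at the tube step, 228 between mature pollen and tubes and 0 between replicate numbers, where 731, 1494, 1885 and 1768 had an unadjusted p under 0.05. With low values raised to the mean 60th percentile, the counts were 28 at hydration and 484 in place of 1158 between replicate numbers. Scaling to a common 75th percentile gave 301 at the tube step, and moved the split of higher and lower calls to 194 and 107 there, from 290 and 232, to 443 and 198 from 526 and 375 between mature pollen and tubes, and to 1273 and 180 from 638 and 520 between replicate numbers. Leaving out 1 array gave 27 to 90, 85 to 660, 349 to 757 and 566 to 1327 calls in the 4 comparisons. Counts moved by over 1.5 times at hydration without hydrated replicate 1 (39), hydrated replicate 2 (27) and tube replicate 1 (41), and at the tube step without either hydrated array (209 and 227) or either tube array (85 and 190). They did so between mature pollen and tubes without either tube array (349 and 468), and between replicate numbers without either hydrated array (566 and 588). The members' median tube step of -0.13 became 0.21 after quantile normalization, their median from mature pollen to tubes of -0.08 became 0.28, and their median replicate difference of -0.05 became 0.28 with a common 75th percentile. No member passed in a stage comparison under the alternatives other than the block. The cause of these shifts was not tested. A fit that leaves a stage with 1 array assumes that it varies like the others.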
